A study of Mus musculus with 4 samples.

Results

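The genes described here are 9 mouse genes that handle fatty acids: *Fabp4*, *Fabp5*, *Fabp1*, *Cd36*, *Lpl*, *Gpihbp1*, *Plin2*, *Cidec* and *Acoxl*. They were selected by symbol from the 32285 genes of the count matrices, 1 row each, and all 9 had UMIs in all 4 libraries. The selection was made with levels of these genes in these cells already known, so the levels and ratios are given as a description and no test was made on them.

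Fatty acids reach the lung partly as free fatty acids bound to albumin and partly as triglyceride in lipoproteins. Lipoprotein lipase, encoded by *Lpl*, splits that triglyceride at the vessel wall, where GPIHBP1 carries and anchors the enzyme on capillary endothelial cells. CD36 takes up long-chain fatty acids and oxidized lipids, cytosolic fatty acid-binding proteins carry them inside the cell, and the surplus is stored in lipid droplets coated by proteins such as perilipin 2. Alveolar macrophages clear surfactant lipid and hold such droplets, and lipid-bearing fibroblasts lie close to the alveolar type II cells that make surfactant.

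Cells of the left lung lobe of wild-type C57BL/6 male mice were profiled by droplet-based 3′ scRNA-Seq after cryopreservation. Young mice were 2 to 3 months old and aged mice 22 months old. At each age, 1 group was nonventilated and 1 was mechanically ventilated for 3 hours at a high tidal volume without end-expiratory pressure. Ventilated mice had injected anesthesia and analgesia, pure oxygen, an endotracheal tube, arterial and venous lines and infused fluid. Nonventilated mice were naive and had none of these procedures. The effects of ventilation, oxygen, anesthesia, analgesia, surgery, intubation and fluid thus cannot be told apart. Food was gradually restricted to hold body weight, which the study's methods state for the mice being aged and the labels for mice in general, and if only the aged mice had this diet, age and diet cannot be told apart. Each library pooled cells of 3 mice, with 1 library per group, so no comparison has a replicate check. The intervals below are 95% intervals that cover counting error only, and not the spread between mice.

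The libraries held 3400 to 4497 barcodes and 40655452 to 45218176 UMIs, of which 2171 to 2976 cells per library were retained, with a median of 7871 to 9104 UMIs per cell. Of 10152 distinct barcode sequences among the retained cells, 8 were shared between libraries (0.0788%). Clusters were called "-like" from marker genes that did not include the 9 genes, and the 9 genes were kept out of the clustering. General capillary-, aerocyte-, alveolar macrophage- and alveolar fibroblast-like cells were mostly in different clusters without and with ventilation, and the markers of these classes differed as well. The venous-, arterial- and lymphatic-like, the interstitial macrophage-like and the adventitial fibroblast- and smooth muscle-like classes were 1 cluster each in all libraries. None of the class's markers was among the 10 leading genes of the cluster that held 84.0% of the young and 73.4% of the aged ventilated general capillary-like cells, although 6 of its 7 markers were detected. The same was true of the cluster with 83.1% of the young and 70.4% of the aged ventilated alveolar fibroblast-like cells, where 7 of 9 markers were detected. Levels are given as CPM, the UMIs of a gene per 1000000 UMIs of that class in that library, and always in the same order of libraries: young without and with ventilation, then aged without and with it. The summed level of the general capillary markers in general capillary-like cells was 8300, 5340, 9380 and 5830 CPM. That of the aerocyte markers in aerocyte-like cells was 10300, 4760, 9140 and 5790 CPM, and that of the alveolar fibroblast markers in alveolar fibroblast-like cells was 13000, 3720, 11800 and 5180 CPM. The part of these marker differences in the values below was not tested.

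The genes differed in the cells that held them. The shares below are of the UMIs in retained cells. For *Cidec*, *Fabp1* and *Lpl*, the cell filter left out more UMIs than it kept in every library. Of the *Lpl* UMIs of all barcodes, it kept 6205 of 14728, 11139 of 23182, 6815 of 16600 and 6068 of 13918. The UMIs left out were not set out by class, although cells beyond the upper limits on genes and UMIs were named in the alternative without these limits. Alveolar macrophage-like cells were 2.35% to 3.95% of the retained cells and held 95.2% to 98.9% of the *Cidec* UMIs, 97.2% to 99.1% of the *Fabp1* UMIs and 42.6% to 80.8% of the *Lpl* UMIs. General capillary-like cells held 76.5% to 85.5% of the *Gpihbp1* UMIs and 44.1% to 58.9% of the *Cd36* UMIs. *Fabp4* UMIs were spread more widely, with 32.1% to 39.2% in nonclassical monocyte-like cells and 12.9% to 31.9% in alveolar macrophage-like cells. No class held more than 39.2% of the *Fabp4* UMIs in any library.

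**Figure D1:**
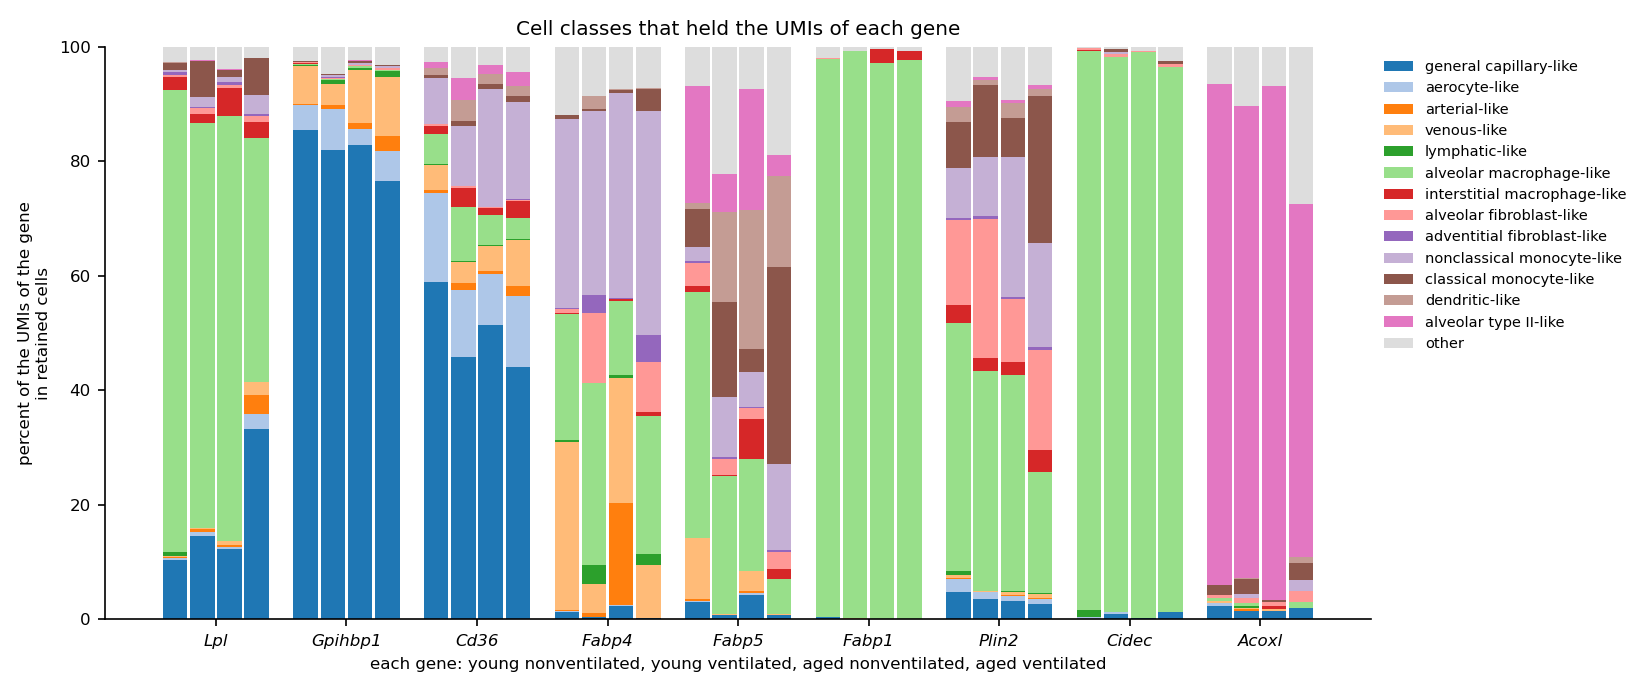
Percent of the UMIs of each of the 9 genes (bars, 1 per library, young without and with ventilation and then aged without and with it) that lay in each cell class, over the retained cells. *Cidec* and *Fabp1* bars are almost wholly alveolar macrophage-like, *Gpihbp1* bars mostly general capillary-like, and *Fabp4* bars are split between several classes.

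*Lpl*, the lipase itself, was higher in the ventilated than in the nonventilated library in general capillary-like cells at both ages. Its level there was 136, 305, 181 and 558 CPM, from 644, 1624, 829 and 2017 UMIs. Both ventilated libraries were above both nonventilated ones, and the aged ventilated library was the highest. The ventilated over nonventilated ratio was 2.24 (2.04 to 2.45) in young and 3.09 (2.85 to 3.35) in aged mice, and the aged over young ratio was 1.33 (1.19 to 1.47) without and 1.83 (1.71 to 1.95) with ventilation. After each cell was thinned to 2000 UMIs, with shallower cells left out, 20.7%, 33.7%, 25.8% and 47.0% of these cells had an *Lpl* UMI, against 0% to 1.05% of B cell-like cells. Without thinning, the shares were 44.5%, 52.4%, 49.4% and 68.4%. The median depth of the general capillary-like cells was 6782, 6129, 7328 and 7536 UMIs, and that of the B cell-like cells 7467, 8933, 8564.5 and 11092 UMIs.

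Aerocyte-like cells, the other capillary class, had a lower *Lpl* level of 14.5, 44.6, 34.8 and 168 CPM in the same order. The 22, 62 and 30 UMIs of the first 3 libraries were few, and the aged ventilated library had 155. Its ratio to the aged nonventilated library was 4.82 (3.24 to 7.38), and its ratio to the young ventilated library was 3.76 (2.78 to 5.13). Venous-like cells had 23.4, 66.4, 72.2 and 175 CPM and arterial-like cells 38.2, 248, 197 and 1150 CPM, so the ventilated library was above the nonventilated one at both ages in both of these classes. The arterial-like class had 16 to 28 cells per library, and none of its markers was among its 10 leading genes. It had 4860, 5120, 4220 and 3560 CPM of arterial markers and 3320, 4800, 2820 and 2100 CPM of venous markers. The arterial list was also at 8850, 11800, 9090 and 16800 CPM in alveolar fibroblast-like cells, so it was not particular to arterial cells. In the aged ventilated library, 1 arterial-like cell held 112 of the 204 *Lpl* UMIs of the class. Without that cell, the level there was 562 CPM. Markers of other cells were also higher in the ventilated library at both ages. Venous-like cells had 20.4, 737, 40.1 and 180 CPM of alveolar macrophage markers, in another order of the libraries than their *Lpl* values. Arterial-like cells had 486, 1560, 1100 and 2360 CPM of general capillary markers. The part of these markers in the venous- and arterial-like *Lpl* values was not tested. Not all classes had this direction. Adventitial fibroblast-like cells had 32, 10, 31 and 18 *Lpl* UMIs, with a log2 ratio after ventilation of −2.63 in young and −1.27 in aged mice. Lymphatic-like cells had 37, 2, 1 and 1 UMIs, with −3.65 in young mice. That class had 290, 15.1, 27.5 and 16.4 CPM of alveolar macrophage markers, so the library with the most *Lpl* also had the most of these markers. The part of these markers in the lymphatic-like *Lpl* values was not tested. Alveolar fibroblast-like cells had 20, 110, 33 and 68 UMIs, with 1.39 in young and 0.69 in aged mice.

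*Gpihbp1*, the carrier of the enzyme, was lower after ventilation in young general capillary-like cells. Its level was 792, 392, 697 and 643 CPM, from 3744, 2088, 3200 and 2323 UMIs, and the young ventilated library stood below the other 3. Ventilated cells had a level 2.02-fold (1.92 to 2.13) lower than nonventilated cells in young mice and 1.09-fold (1.03 to 1.15) lower in aged mice. With ventilation, the aged over young ratio was 1.64 (1.54 to 1.74). The share of thinned cells with a *Gpihbp1* UMI was 71.2%, 44.6%, 67.5% and 62.0%, and without thinning it was 87.6%, 69.6%, 88.0% and 85.2%. In B cell-like cells, the thinned share was 0% to 2.11%.

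After ventilation, *Lpl* and *Gpihbp1* thus differed in direction in young general capillary-like cells. In venous-like cells, *Gpihbp1* was 422, 191, 570 and 389 CPM, lower in the ventilated library at both ages, by 2.21-fold (1.74 to 2.83) in young mice. Aerocyte-like cells had 124, 133, 122 and 177 CPM, with a ratio of 1.08 (0.874 to 1.33) in young and 1.46 (1.13 to 1.88) in aged mice. The young interval held 1, so a difference was not detectable at this depth.

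*Lpl* was at its highest in alveolar macrophage-like cells, and the libraries lay close together there. The level was 2910, 3670, 3070 and 2870 CPM, and all of these cells had at least 1 *Lpl* UMI in every library. The ratio after ventilation was 1.26 (1.22 to 1.31) in young mice and 0.934 (0.890 to 0.979) in aged mice. Interstitial macrophage-like cells had 211, 448, 579 and 256 CPM, with the young ventilated and the aged nonventilated libraries the highest. The same cells of the aged nonventilated library had 238 CPM of alveolar macrophage markers, against 7.49 to 43.1 CPM in the other 3 libraries, and 12 of its 49 cells had 5 or more UMIs of these markers. Without cells of that kind, *Lpl* was 211, 454, 491 and 256 CPM, so the order of the libraries was the same. With each cell thinned to 2000 UMIs, the higher value of the aged nonventilated library was not seen.

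**Figure D2:**
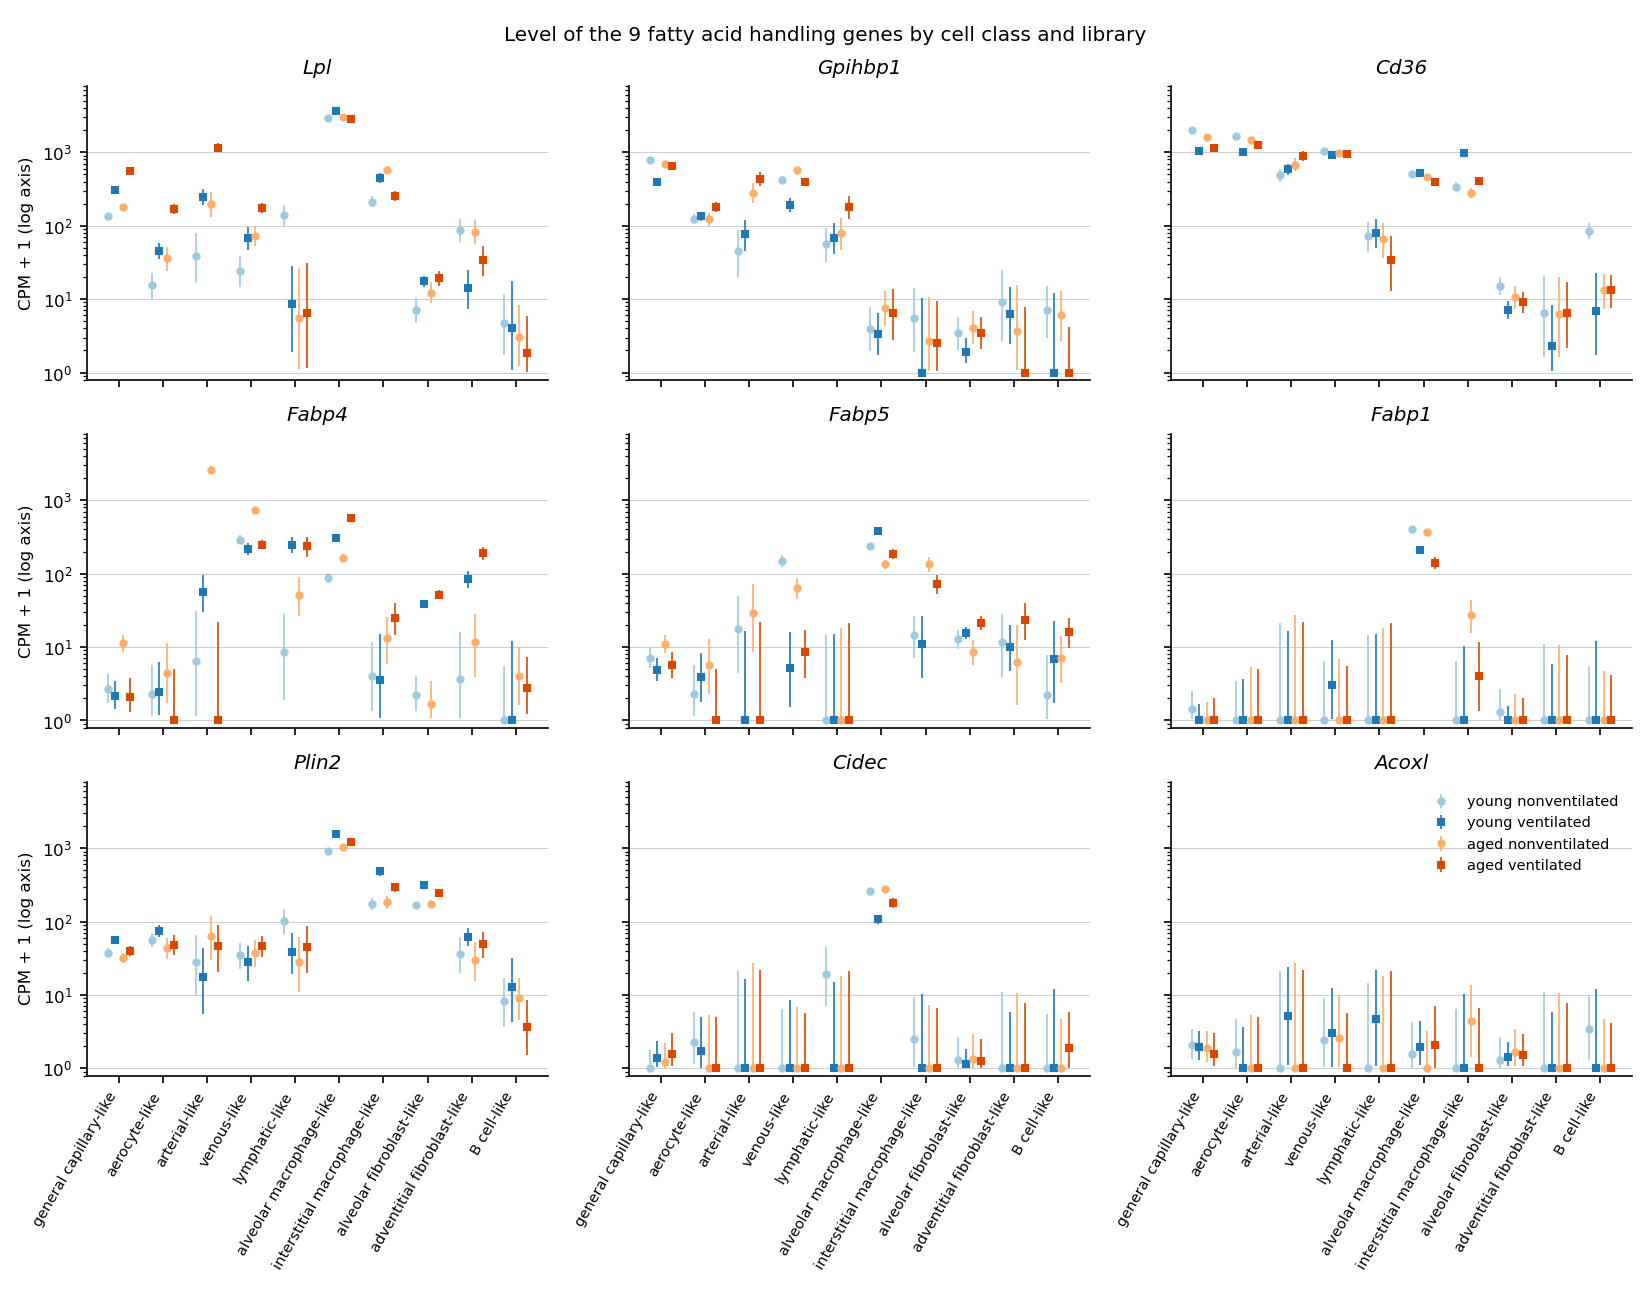
Level of each gene (CPM + 1, log axis) in 9 cell classes and in B cell-like cells for the 4 libraries, with bars for the 95% counting interval. *Lpl* in general capillary-like cells is highest in the aged ventilated library at 558 CPM, and *Fabp4* in alveolar fibroblast-like cells is near 0 without ventilation and 37.2 and 50.5 CPM with it.

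*Cd36*, the fatty acid receptor, was lower in the ventilated library of each age in both capillary classes. In general capillary-like cells, its level was 2030, 1030, 1600 and 1150 CPM, and the ventilated libraries lay below the nonventilated ones. The difference was 1.97-fold (1.91 to 2.04) in young and 1.39-fold (1.34 to 1.44) in aged mice. Aerocyte-like cells had 1670, 1000, 1470 and 1270 CPM, 1.66-fold (1.56 to 1.78) lower in young and 1.16-fold (1.07 to 1.26) lower in aged mice after ventilation. Thinned to 2000 UMIs, 95.9%, 77.3%, 92.4% and 82.5% of general capillary-like cells had a *Cd36* UMI, against 2.04% to 3.30% of B cell-like cells. Unthinned, the general capillary-like shares were 96.6%, 89.4%, 95.6% and 91.9%.

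*Cd36* was also lower in the ventilated library of each age in nonclassical monocyte-like cells, at 968, 813, 950 and 810 CPM. Alveolar fibroblast-like cells had 14.2, 6.16, 9.59 and 8.15 CPM, from 28 to 47 UMIs. Venous-like cells had 1040, 930, 982 and 956 CPM, and the ratio after ventilation was 0.890 (0.789 to 1.00) in young and 0.973 (0.874 to 1.08) in aged mice. Alveolar macrophage-like cells had 501, 527, 463 and 395 CPM, a range of small extent. Interstitial macrophage-like cells had 341, 985, 276 and 405 CPM, with the young ventilated library above the other 3 and a ratio of 2.89 (2.44 to 3.41) in young and 1.47 (1.20 to 1.80) in aged mice. That class had 32 to 53 cells per library.

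*Fabp4* encodes the fatty acid-binding protein of adipocytes, macrophages and some endothelial cells. Its level in alveolar macrophage-like cells was 86.0, 301, 163 and 571 CPM, from 148, 646, 269 and 515 UMIs. Both ventilated libraries were above both nonventilated ones, and each aged library was above the young library of the same condition. The ratio after ventilation was 3.50 (2.92 to 4.21) in young and 3.50 (3.01 to 4.07) in aged mice, and the aged over young ratio was 1.90 (1.55 to 2.34) without and 1.90 (1.69 to 2.14) with ventilation. Of the alveolar macrophage-like cells, 40 of 99, 68 of 108, 52 of 98 and 43 of 51 had a *Fabp4* UMI. Thinned to 2000 UMIs, the shares were 14.1%, 32.4%, 21.4% and 49.0%, against 0% to 1.10% of B cell-like cells, with median depths of 17435, 19763.5, 17276 and 19104 UMIs in the macrophage class. Cells with 5 or more *Fabp4* UMIs numbered 9, 36, 18 and 27 and held 87, 579, 196 and 484 of the UMIs. The remaining cells had 39.6, 47.4, 55.8 and 77.6 CPM. The ratios above thus rest largely on the cells with 5 or more UMIs, and their intervals do not cover the spread between cells.

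The cells of this class were mostly in 1 cluster without ventilation and in another with it. In the first of these clusters, which also held 16 cells of the aged ventilated library, *Fabp4* was 67.9 CPM in the young nonventilated, 152 CPM in the aged nonventilated and 241 CPM in the aged ventilated library. In the second, it was 305 CPM in the young ventilated library and 707 CPM in the 35 cells of the aged ventilated library. The aged value was thus above the young value for nonventilated cells in the first cluster and for ventilated cells in the second. The 2 young ventilated cells of the first cluster and the 2 young and 5 aged nonventilated cells of the second were too few for a level. Nonclassical monocyte-like cells, patrolling monocytes of the vessel lumen, had 163, 417, 239 and 423 CPM, also higher in both ventilated libraries.

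**Figure D3:**
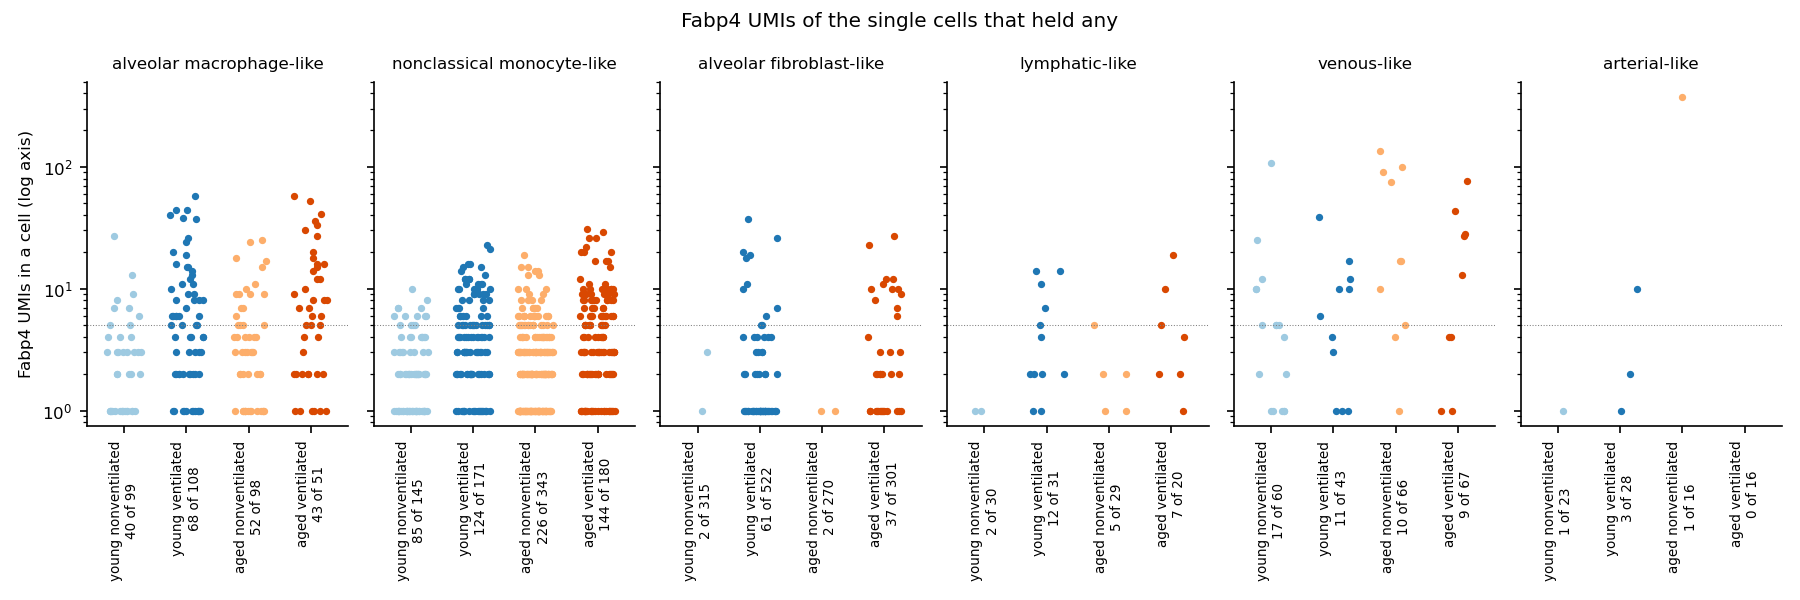
*Fabp4* UMIs (log axis) in each single cell that held any, by cell class and library, with the number of such cells of all cells of the class under each column and a dotted line at 5 UMIs. In alveolar macrophage-like cells 40 to 68 cells per library held UMIs, while in arterial-like cells of the aged nonventilated library 1 cell held 372.

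Alveolar fibroblast-like cells had almost no *Fabp4* UMI without ventilation. The class summed to 4 UMIs in 315 cells, 248 in 522, 2 in 270 and 186 in 301, or 1.21, 37.2, 0.685 and 50.5 CPM. The ventilated over nonventilated ratio was 30.8 (11.9 to 114) in young mice. In aged mice, it was 73.8 (20.1 to 614), where the lower count was 2. Few cells carried the UMIs: 61 of 522 young and 37 of 301 aged ventilated cells had any, and 11 and 12 cells with 5 or more held 66.1% and 78.0% of them. These 11 and 12 cells had 11.5 and 10.7 CPM of alveolar macrophage markers, and the other cells 7.25 and 9.44 CPM. Thinned to 2000 UMIs, 4.78% (3.02% to 7.15%) and 5.95% (3.37% to 9.63%) of the ventilated cells had a UMI.

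The same direction was seen in other classes of the vessel and airway wall. Adventitial fibroblast-like cells had 2.70, 82.5, 10.6 and 189 CPM of *Fabp4*, lymphatic-like cells 7.45, 245, 50.3 and 234 CPM, and smooth muscle-like cells 104, 361, 65.5 and 334 CPM. All 3 classes were higher in the ventilated libraries, from 18 to 48 cells per library. In each of the ventilated sums of the adventitial and lymphatic classes, 3 to 6 cells with 5 or more UMIs held 78.5% to 95.2% of the UMIs.

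Blood endothelial cells held *Fabp4* in very few cells. General capillary-like cells had 1.69, 1.13, 10.2 and 1.11 CPM and aerocyte-like cells 1.32, 1.44, 3.48 and 0 CPM, where the 0 UMIs allow up to 3. In the aged nonventilated library, 2 general capillary-like cells held 43 of the 47 UMIs. Over the general capillary-, aerocyte-, arterial- and venous-like cells, 10 of 955, 7 of 1029, 11 of 780 and 5 of 630 cells had 5 or more *Fabp4* UMIs. These were 1.05%, 0.680%, 1.41% and 0.794% of the cells, and they held 83.2% to 98.6% of the *Fabp4* UMIs. The counting intervals of these shares overlapped.

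Most of these high cells were venous-like, with 9 of 60, 6 of 43, 8 of 66 and 5 of 67 cells of that class. The venous-like level of 289, 216, 727 and 246 CPM rested on them, and the aged nonventilated library was the highest, an order that did not hold with a stricter mitochondrial limit. Compared with the other venous-like cells, they had more UMIs of the venous markers, at 10000 against 8220, 18300 against 7080, 11300 against 6240 and 16700 against 8690 CPM. They had fewer of the general capillary markers, at 1500 against 4490, 963 against 3890, 1030 against 5750 and 650 against 3530 CPM. Other marker lists differed too. The arterial markers were at 994 against 386, 1580 against 481, 1470 against 447 and 2740 against 310 CPM, and the alveolar macrophage markers at 42.5 against 15.9, 1230 against 607, 138 against 25.8 and 838 against 107 CPM. The B cell markers were at 348 against 19.4 and 364 against 166 CPM in the nonventilated libraries and at 0 in the high cells of the ventilated ones. The endothelial markers were lower in the high cells of the ventilated libraries, at 1750 against 3200 and 2380 against 3820 CPM. The part of these cells' other RNA in the *Fabp4* values was not tested. The arterial-like level was 5.46, 54.7, 2620 and 0 CPM. All 372 UMIs of the aged nonventilated library lay in 1 of its 16 cells, so this value describes a cell and not the class.

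*Fabp5*, the epidermal-type binding protein, lies on the same chromosome as *Fabp4*. Its level in alveolar macrophage-like cells was 239, 375, 133 and 185 CPM, higher in the ventilated library at each age and lower in aged than in young cells. The ratio after ventilation was 1.57 (1.39 to 1.77) in young and 1.39 (1.13 to 1.71) in aged mice, and aged ventilated cells had a level 2.03-fold (1.71 to 2.41) below young ventilated cells. Its order with age was thus the reverse of that of *Fabp4* in the sums of the same class. Classical monocyte-like cells had 38.2, 271, 33.7 and 328 CPM, with both ventilated libraries the highest.

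Smaller classes gave *Fabp5* values that rested on few cells. Venous-like cells had 149, 4.15, 62.6 and 7.49 CPM, higher in both nonventilated libraries, and 1 cell held 41 of the 102 UMIs of the young nonventilated library. Interstitial macrophage-like cells had 13.5, 10.1, 134 and 70.8 CPM, but 1 cell held 74 of the 77 aged nonventilated UMIs, and the level was 5.46 CPM without it. Alveolar fibroblast-like cells had 11.8, 14.7, 7.53 and 20.6 CPM, with a ratio after ventilation of 1.25 (0.854 to 1.86) in young and 2.74 (1.69 to 4.63) in aged mice.

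*Fabp1*, the liver-type binding protein, was almost wholly in alveolar macrophage-like cells. Its level there was 399, 206, 363 and 139 CPM, from 687, 442, 598 and 125 UMIs, lower in both ventilated libraries. The ventilated level was 1.94-fold (1.72 to 2.19) lower in young and 2.62-fold (2.16 to 3.20) lower in aged mice. *Fabp1* and *Fabp4* thus differed in opposite directions in the sums of this class. The endothelial, other macrophage and fibroblast classes had at most 2 UMIs per library, except 15 in interstitial macrophage-like cells of the aged nonventilated library, where 2.12 CPM were left without the cells that had alveolar macrophage markers.

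*Plin2*, which coats lipid droplets, was higher after ventilation in macrophages and fibroblasts. Alveolar macrophage-like cells had 923, 1540, 1040 and 1230 CPM, with a ratio of 1.67 (1.57 to 1.77) in young and 1.19 (1.10 to 1.28) in aged mice. Interstitial macrophage-like cells had 175, 481, 182 and 294 CPM, with ratios of 2.75 (2.17 to 3.49) and 1.61 (1.27 to 2.06). Alveolar fibroblast-like cells had 165, 313, 171 and 247 CPM, with ratios of 1.90 (1.73 to 2.09) and 1.45 (1.30 to 1.62). In each of these 3 classes, the ventilated libraries were above the nonventilated ones and the young ventilated library was the highest.

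No cluster was named as lipid-bearing fibroblasts, and the *Plin2* value is that of the whole alveolar fibroblast-like class. A further fibroblast cluster of 110, 0, 85 and 3 cells had 8 of the 9 alveolar fibroblast markers, but its 10 leading genes held an adventitial fibroblast marker, *Mfap5*, and none of the alveolar fibroblast list, so it stayed unnamed and is not part of the class. Leaving it out took cells almost only from the nonventilated libraries, that is from 1 side of each ventilation comparison. General capillary-like cells had 36.8, 55.8, 31.2 and 39.0 CPM of *Plin2*, with a ratio of 1.51 (1.25 to 1.84) in young and 1.25 (0.985 to 1.59) in aged mice. After thinning, 24.0%, 35.0%, 26.0% and 34.5% of alveolar fibroblast-like cells had a *Plin2* UMI, against 0% to 3.23% of B cell-like cells, and 58.7%, 72.0%, 66.3% and 67.1% without thinning. The median depth of the alveolar fibroblast-like cells was 11674, 13493.5, 11638.5 and 13184 UMIs.

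*Cidec*, which helps lipid droplets fuse, was lower after ventilation in alveolar macrophage-like cells. Its level was 259, 106, 281 and 178 CPM, from 445, 228, 462 and 160 UMIs, and the young ventilated library was the lowest. The ventilated level was 2.44-fold (2.07 to 2.87) lower in young and 1.58-fold (1.32 to 1.90) lower in aged mice. The droplet genes *Plin2* and *Cidec* thus differed in opposite directions in the sums of this class. Apart from 5 UMIs in lymphatic-like cells of 1 library, no endothelial, interstitial macrophage or fibroblast class had more than 2 *Cidec* UMIs in a library.

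*Acoxl*, named for its likeness to the peroxisomal acyl-CoA oxidases, was a gene of alveolar type II-like cells. Its level there was 704, 677, 700 and 251 CPM, from 190, 295, 267 and 63 UMIs in 17, 25, 23 and 11 cells. Among these retained cells, the aged ventilated library was the lowest. Of the *Acoxl* UMIs of all barcodes, the cell filter kept 217 of 1155, 358 of 654, 297 of 1360 and 102 of 1223. Over all barcodes and classes, both aged libraries had 30.1 CPM, and the young ventilated library was the lowest at 14.7 CPM. The order above thus holds for the retained cells only. In every endothelial, macrophage and fibroblast class, a library had at most 5 UMIs, or at most 4.20 CPM. Nothing is read from so few UMIs.

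The number of the 9 genes past 2-fold was set beside the share of all genes that passed the same rule: a ratio of at least 2 in either direction with an interval that leaves out 1. Genes had to average 50 CPM over the libraries compared and to reach 20 UMIs in 1 of them. Not all 9 genes could be counted, because most were too low in a class, and *Fabp4* in alveolar fibroblast-like cells failed the limit on CPM. In general capillary-like cells, 2 of 3 genes passed after ventilation in young mice (*Lpl* higher, *Gpihbp1* lower; 19.4% of all genes tested) and 1 of 3 in aged mice (*Lpl*; 11.9%). With age, 0 of 3 passed without ventilation (0.321%) and 0 of 3 with it (3.48%). In aerocyte-like cells, 0 of 3 passed after ventilation in young mice (24.1%) and 1 of 3 in aged mice (*Lpl*; 14.0%), and with age 0 of 2 without ventilation (0.428%) and 1 of 4 with it (*Lpl*; 5.74%).

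Alveolar macrophage-like cells could be read for 7 genes. After ventilation, 2 of 7 passed in young mice (*Fabp4* higher, *Cidec* lower; 9.82% of all genes tested) and 2 of 7 in aged mice (*Fabp4* higher, *Fabp1* lower; 3.13%). With age, 0 of 7 passed without ventilation (1.41%) and 1 of 7 with it (*Fabp5*, lower in aged cells; 2.14%). In alveolar fibroblast-like cells, only *Plin2* could be counted, and it did not pass in young mice after ventilation (23.4%), in aged mice after ventilation (13.3%), or with age without ventilation (0.950%) or with it (3.00%). The median log2 ratio after ventilation was −0.98 over the 3 genes of young general capillary-like cells, against −0.07 over all genes tested there. It was −0.12 in aged general capillary-like cells. The young and aged medians were 0.11 and 0.54 in aerocyte-like and 0.33 and −0.10 in alveolar macrophage-like cells. The counts moved by 1 or 2 genes under other filters, clusterings or scalings, and *Gpihbp1* in young general capillary-like cells was not past 2-fold under either other scaling. With so few genes, nothing is read from these counts about the 9 genes as a group.

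**Figure D4:**
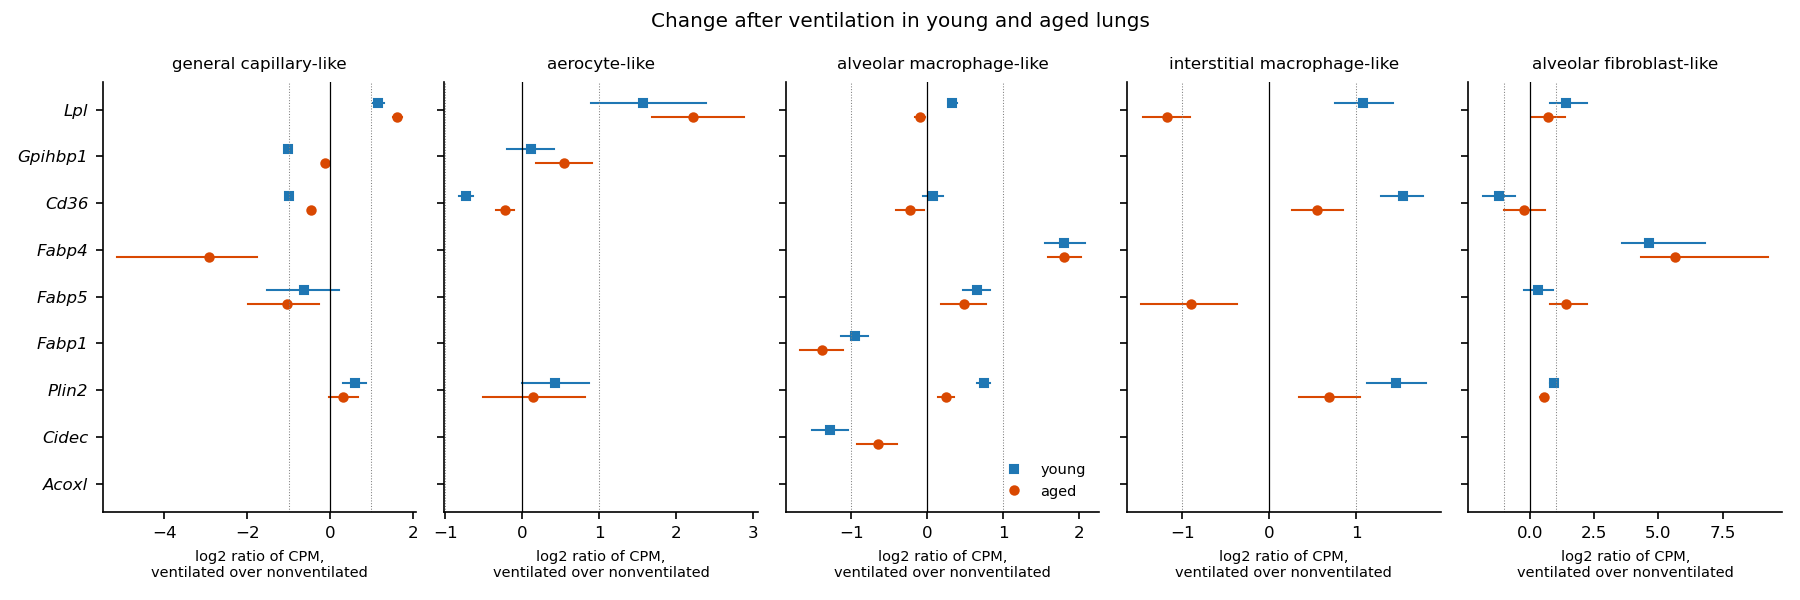
Log2 ratio of CPM, ventilated over nonventilated, of each gene in 5 cell classes for young and aged mice, with lines for the 95% counting interval and dotted lines at 2-fold. Genes with fewer than 20 UMIs in both libraries, or with none in 1 of them, are left out. In alveolar macrophage-like cells *Fabp4* lies at 1.80 in both ages, *Cidec* at −1.28 and −0.65 and *Fabp1* at −0.95 and −1.38.

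The ventilated over nonventilated log2 ratios of the 2 ages were then set side by side. In general capillary-like cells, the aged minus young difference was 0.90 (0.79 to 1.01) for *Gpihbp1*, 0.50 (0.43 to 0.58) for *Cd36* and 0.47 (0.29 to 0.64) for *Lpl*. *Gpihbp1* and *Cd36* were less far below the nonventilated level in aged than in young cells, and *Lpl* was further above it. In alveolar macrophage-like cells, the difference was 0.01 (−0.33 to 0.34) for *Fabp4*, 0.63 (0.28 to 0.97) for *Cidec*, −0.42 (−0.75 to −0.10) for *Fabp1* and −0.49 (−0.63 to −0.35) for *Plin2*. The interval of *Fabp4* holds 0 and also differences of up to 0.34 either way. For *Plin2* in alveolar fibroblast-like cells, it was −0.39 (−0.59 to −0.18). These intervals hold no variation between mice, so a difference between the ages was not tested.

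The surrounding pathway was read from 7 lists with 137 other genes of fatty acid uptake, lipase handling, storage, oxidation, synthesis and regulation. In general capillary-like cells, 26 of these could be counted at each age, of which 4 were past 2-fold higher and 6 lower after ventilation in young mice (19.4% of all genes tested were past 2-fold in either direction), and 2 higher and 4 lower in aged mice (11.9%). *Mgll*, the monoacylglycerol lipase, was 104 CPM without and 19.3 CPM with ventilation in young mice, and 101 and 29.0 CPM in aged mice. *Lipe*, the hormone-sensitive lipase, was 90.8 and 22.9 CPM in young mice and 87.6 and 35.7 CPM in aged mice. *Pcsk5*, a proprotein convertase, was 197 CPM without and 51.3 CPM with ventilation in young mice, and 216 and 59.5 CPM in aged mice. *Furin*, a convertase whose family cleaves lipoprotein lipase, was the other way, at 74.7 and 190 CPM in young mice and 98.7 and 207 CPM in aged mice, as was the nuclear receptor partner *Nrip1*, at 121 and 316 CPM and at 116 and 312 CPM.

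Aerocyte-like cells had 5 higher and 7 lower of 29 genes in young mice (24.1% of all genes tested) and 3 higher and 1 lower of 27 in aged mice (14.0%). *Cebpb*, a transcription factor of inflammation and fat cell formation, was 34.4 and 145 CPM without and with ventilation in young mice and 45.2 and 385 CPM in aged mice. *Mgll* was again lower, at 518 and 178 CPM and at 465 and 183 CPM. *Cpt1a*, which admits fatty acids to mitochondria, was 93.2 and 25.2 CPM in young mice, and the surface proteoglycan *Sdc4* 23.8 and 85.6 CPM. With age, *Cebpb* was past 2-fold in aerocyte-like cells, at 385 CPM in aged and 145 CPM in young ventilated cells (5.74% of all genes tested).

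Alveolar macrophage-like cells had 4 higher and 4 lower of 48 genes in young mice (9.82% of all genes tested) and 1 higher and 1 lower of 50 in aged mice (3.13%). *Pparg*, the nuclear receptor that drives fatty acid genes in these cells and in adipocytes, was 1090 CPM without and 368 CPM with ventilation in young mice and 736 and 317 CPM in aged mice. *Ppard*, its relative, was 77.1 and 186 CPM in aged mice. The sterol receptor *Nr1h3* was 16.3 and 84.3 CPM and the caveolar gene *Cav1* 16.3 and 93.1 CPM in young mice, while the phosphatidate phosphatase *Lpin1* was 404 and 74.5 CPM and the peroxisomal transporter *Abcd2* 148 and 43.3 CPM. The aerocyte marker list was also uneven in this class, at 234, 1530, 307 and 421 CPM, and its part in the *Cav1* value was not tested. With ventilation, *Lpin1* was 171 CPM in aged and 74.5 CPM in young cells, *Abcd2* 95.4 and 43.3 CPM and the retinoid receptor *Rxra* 52.2 and 107 CPM.

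Alveolar fibroblast-like cells had 7 higher and 7 lower of 35 genes in young mice (23.4% of all genes tested) and 5 higher and 7 lower of 42 in aged mice (13.3%). *G0s2*, an inhibitor of the first step of triglyceride breakdown, was 814 CPM without and 54.4 CPM with ventilation in young mice and 660 and 128 CPM in aged mice. *Sdc4* was 185 and 1610 CPM in young and 282 and 1100 CPM in aged mice. *Acsl4*, which activates long polyunsaturated fatty acids, was 33.2 and 209 CPM in young mice and 39.7 and 122 CPM in aged mice. *Hadh*, an enzyme of mitochondrial oxidation, was 161 and 25.8 CPM in young mice and 160 and 41.6 CPM in aged mice. *Pcsk5* was 200 and 631 CPM in young mice and 177 and 652 CPM in aged mice, and *Fabp3* was 99.6 and 16.8 CPM in aged mice. With ventilation, *Lpin1* was 102 CPM in aged and 40.4 CPM in young cells, and *G0s2* 128 and 54.4 CPM.

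No gene followed *Fabp4* closely over the cell classes. Over 82 sums of a class in a library, from 21 classes, and among 10124 genes, the highest Pearson correlations with *Fabp4* were 0.525 for *Sgk1*, 0.514 for *Fam217b*, 0.511 for *Ppt2*, 0.504 for *Tcf7l2* and 0.503 for *Ehbp1l1*. With the other 8 genes of the set, the correlation ran from −0.273 for *Acoxl* to 0.294 for *Plin2*. The sums share libraries, depth and cell type, so these correlations describe these sums and have no p.

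On mm10, *Fabp4* lies at chr3:10204088-10208576 on the minus strand and *Fabp5* at chr3:10012548-10016607 on the plus strand, 187 kb apart with 6 annotated genes between. *Pmp2* and *Fabp9*, of the same protein family, lie in that interval and had 24 and 13 UMIs over all barcodes. *Fabp1* is at chr6:71199827-71205023 and *Cidec* at chr6:113424634-113435760. *Cd36* is at chr5:17781690-17888801, *Lpl* at chr8:68880491-68907448, *Gpihbp1* at chr15:75596628-75599481, *Plin2* at chr4:86648386-86670060 and *Acoxl* at chr2:127838876-128123873, and all 9 are annotated as protein-coding. In the last 500 bases of their transcripts, where 3′ reads fall, 8 of the genes shared no stretch of 50 bases with another gene. *Plin2* shared 2.38% of its stretches with *Gm12551*, so its counts could lose a few reads to that gene.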

How the data were processed

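The authors counted the reads with Cell Ranger 7.0.0 against mm10 and deposited the result as counts of UMIs for each gene in each barcode, not normalized. For their own analysis they used Seurat and tests on cells. CPM, log2 ratios and percentages were computed here from the deposited counts. Barcodes were kept where they had 200 to 5000 genes, a mitochondrial share of no more than 10% and no more UMIs than the 93rd percentile of all barcodes (28597.11). This left 10160 cells, a slightly smaller number than the study gives. They were clustered with Seurat 5.3.0 in R 4.3.3 (2000 variable genes, 37 components, resolution of 0.5, no integration of libraries), and the endothelial, mesenchymal and phagocyte clusters once more (20 components), giving 45 clusters. Clusters were named from markers by a rule set after the clusters were seen. Python 3.11.15, numpy 2.4.6, scipy 1.17.1, pandas 2.3.3 and matplotlib 3.10.9 gave the rest.

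UMIs were summed per class and library, and 1 UMI was added to each sum for the log2 ratio. CPM intervals are exact Poisson, shares Clopper-Pearson and ratios exact conditional binomial intervals, and the scripts were tested on simulated data. PCR copies were removed by UMI, and the intervals cover counting error only. A count of 0 was read as at most 3. No doublet caller was run, and the upper limits on genes and UMIs were the only filter on doublets. Classes of 11 to 733 cells set the precision.

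The genes and lists were chosen with earlier results of these data known. Named in the text are the 9 genes, up to 2 rises and 2 falls past 2-fold of the pathway lists per main class and comparison, and the 5 genes most like *Fabp4*. *Pmp2*, *Fabp9* and *Gm12551* were named after their values were seen. The alternatives varied the filters, clustering, scaling, weighting, depth per cell, background RNA, pseudocount and gene filter. Positions came from a GENCODE annotation of GRCm38, the build of mm10, by identifier for all 9 genes.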

Additional observations from a re-analysis of the deposited data

Results flagged for a closer look

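Flagged were 2 values for which the ratio after ventilation pointed one way in the young and the other way in the aged libraries. In alveolar macrophage-like cells, the *Lpl* log2 ratio of the young libraries was 0.33 and that of the aged libraries −0.10, an aged minus young difference of −0.43 (counting interval −0.52 to −0.35). In interstitial macrophage-like cells, these ratios were 1.08 and −1.17, a difference of −2.26 (−2.67 to −1.84). With 1 library per group, neither difference was tested. The second rests on 32 to 53 cells per library, and with cells thinned to 2000 UMIs its aged log2 ratio was 0.07. Other values that were not flagged also differed in direction between the ages. Among them were *Cd36* in alveolar macrophage-like cells (young 0.07, aged −0.23), *Fabp4* in arterial-like cells (2.43 and −8.86) and *Lpl* in lymphatic-like cells (−3.65 and 0.25).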

How the results depend on the processing

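Each comparison rests on 1 library per group of pooled mice, so no replicate could be left out. No paired analysis was possible because each group has 1 library and no test was made. Of 2297 alternative values of 156 log2 ratios, 2198 had the sign of the main value and 99 another sign. Agreement in sign does not show how far a value moved. Thinning each cell to 2000 UMIs gave 0.10 for *Plin2* in lymphatic-like cells with age without ventilation (main −1.70), and for *Lpl* in interstitial macrophage-like cells 0.07 after ventilation in aged mice (−1.17) and −0.09 with age without ventilation (1.45). With at most 5% mitochondrial UMIs, *Fabp4* in venous-like cells was 1.27 after ventilation in aged mice (−1.56) and −2.14 with age without ventilation (1.33), the latter −0.41 with the UMI limit taken over the barcodes left by the other limits. *Fabp4* in arterial-like cells with age was −0.90 with no upper limit on genes or UMIs (7.91). *Fabp5* in interstitial macrophage-like cells with age without ventilation (3.18) was −1.17 with that UMI limit and −0.56 without the cell with the most UMIs. These values rest on single cells or small classes, and the cause was not tested.

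The number of the 9 genes past 2-fold also moved. In young general capillary-like cells after ventilation (2), it was 1 at a resolution of 0.18, without the 200 most abundant genes and with median-of-ratios scaling. At that resolution, it was 2 in aged cells after ventilation (1) and 1 with age without ventilation (0). In aerocyte-like cells, it was 1 in young mice after ventilation (0) with no upper limit and at a resolution of 0.18, 0 in aged mice (1) with at most 5% mitochondrial UMIs and after thinning, and 0 with age and ventilation (1) with those settings, with no upper limit and with the mean of per-cell CPM. In alveolar macrophage-like cells, it was 4 in young mice after ventilation (2) with the UMI limit of the barcodes left. With age without ventilation (0), it was 1 with that limit, with no upper limit, with at most 5% mitochondrial UMIs, after thinning and without the cell with the most UMIs. With age and ventilation (1), it was 2 with that limit, and 0 with no upper limit and without the 200 most abundant genes. In alveolar fibroblast-like cells after ventilation (0), it was 1 in young mice with that limit, with no upper limit, at a resolution of 0.18, with the unnamed fibroblast cluster and with the mean of per-cell CPM, and 1 in aged mice with no upper limit. Leaving out the cell with the most UMIs, adding the unnamed cluster, and leaving out shallow or alveolar macrophage marker-bearing cells were chosen after seeing the data.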
